A study of Desmophyllum pertusum with 36 samples.

Results

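The 100 transcripts described here were lower at week 4.5 than at both week 2 and week 8.5 in polyps of Lophelia pertusa (Desmophyllum pertusum), a stony coral of cold, deep water. They were chosen by their measured levels in all 18 RNA sequencing libraries of the study. Levels are in CPM, the count of a transcript scaled to a common library total of 1e6 counts, and on the log2 scale as log2(CPM + 0.5). Of 75743 transcripts in the table, 41829 had a mean of at least 1 CPM and lay outside the 100 most abundant. Another 401 were set aside because the sign of the difference between pH 7.6 and pH 7.9 was the same in each of the 9 pairs that share a colony and a week. Among the remaining 41428 transcripts, 255 had their lowest level at week 4.5 in all 6 series of a colony at a pH. That is 0.616% of the transcripts the rule could choose from. The 100 with the largest mean depth were kept, where depth is the lower of the levels at weeks 2 and 8.5 minus the level at week 4.5, in log2 units. The fall to week 4.5 and the return are therefore given as a description with no test.

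Colonies 1, 3 and 4, which differ in genotype, were cut into fragments kept at pH 7.6 or at pH 7.9, and polyps were sampled at weeks 2, 4.5 and 8.5. Each combination of colony, pH and week gave 1 library, so that there were 9 libraries at each pH, 6 for each colony and 6 for each week. The lower pH is the treatment, and pH 7.9 is the level it was set against. The labels number the times 1 to 3, and these were matched to the weeks in the order of the design text. Nothing in the labels says whether fragments stood in separate tanks, and the 3 times of a colony are repeated samples of it. The p-values below therefore measure only the spread between these libraries.

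The species builds reefs without photosynthetic algal partners and feeds on plankton and particles that its polyps catch. It lays down an aragonite skeleton from a fluid that the tissue holds at a higher pH than the surrounding seawater. Lower seawater pH makes that step more costly, and fragments moved into an aquarium also adjust to handling, food and water over time. Whole polyps hold several cell types, so fewer cells of a type and less RNA per cell cannot be told apart in these data. The table gives transcripts numbers and no gene names, so no function is assigned to any of them and no marker of polyp tissue could be checked.

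Libraries did not group fully by colony label. By the likeness of their profiles they formed 3 sets, and 5 libraries, all at pH 7.9, lay outside the set that held the pH 7.6 libraries of their colony. These were colony 1 at weeks 4.5 and 8.5 and colony 3 at all 3 weeks. They are used here as labelled, and whether labels were exchanged was not tested. An exchange would change what the colony values, the colony term of the models and the pH 7.9 series of colonies 1 and 3 stand for. The series of colony 1 at pH 7.9 therefore joins a week 2 library like the rest of colony 1 to later libraries like those of colony 3 at pH 7.6. That of colony 3 at pH 7.9 joins a week 2 library like those of colony 4 to later libraries like those of colony 1. In these series a difference in level between the sets enters the step from week 2 to week 4.5, and thus the choice of members; its part in the depth there was not tested beyond the values given below. Library totals ran from 18042191 to 25651213 counts. Totals at week 4.5 differed from the mean of weeks 2 and 8.5 by 897353 counts on average, and were lower in 3 of the 6 series (two-sided exact permutation test over series, p = 0.406, where 0.0312 is the smallest possible). The lane split differed by week, with lane 1 to lane 2 ratios of 0.468 to 4.48 at week 2, 0.999 to 1.01 at week 4.5 and 1.01 to 1.01 at week 8.5. The part of the lane split in the week differences was not tested.

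The trough was shallow for most members. Mean depth over the 6 series ran from 0.35 to 1.61 with a median of 0.46 on the log2 scale, a 1.38-fold difference. Only 3 of the 100 were deeper than 1 log2 unit, and 61 were shallower than 0.5. The last members inside the limit had mean depths of 0.351 and 0.350, and the first transcripts outside had 0.349 and 0.345, so that the limit cuts through a continuous range. The summed share of the 100 in a library's counts was 0.261 to 0.520% at week 2, 0.178 to 0.292% at week 4.5 and 0.251 to 0.447% at week 8.5.

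**Figure D1:**
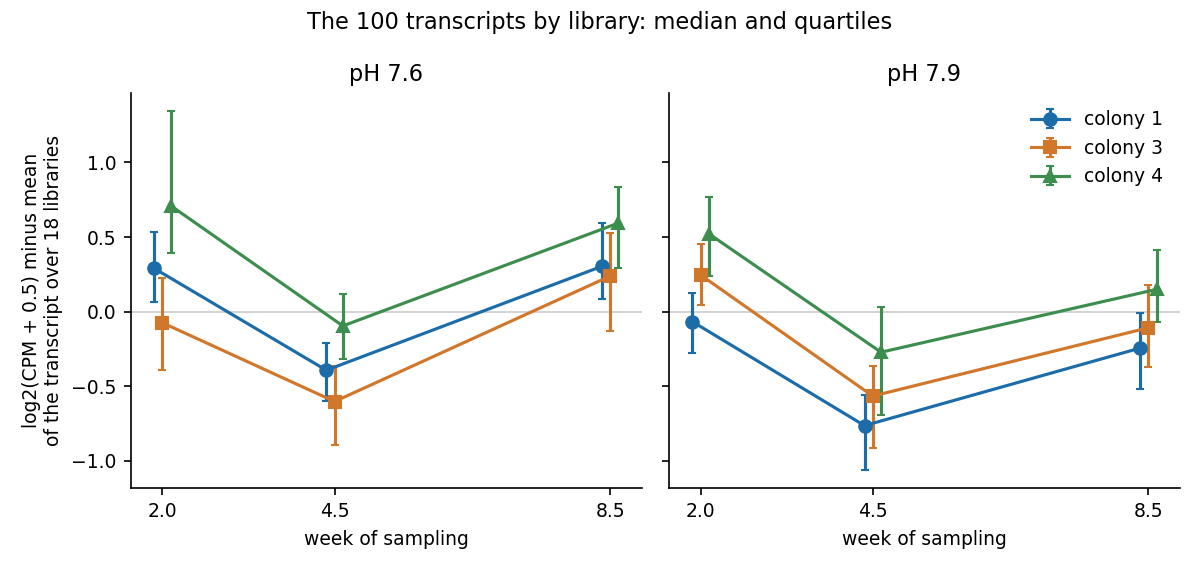
Median level of the 100 transcripts in each library, as log2(CPM + 0.5) minus the transcript's mean over the 18 libraries, against week, with pH 7.6 in the left panel and pH 7.9 in the right. Points are medians over the 100, bars reach to the quartiles, and colours mark colonies. The low point at week 4.5 in every series was set by the choice of members, while colony 4 stands highest throughout and the return at week 8.5 differs between the panels.

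Transcript_13988 had the deepest trough, with a mean depth of 1.61. At pH 7.6 it stood at 10.1, 0.975 and 67.9 CPM at weeks 2, 4.5 and 8.5 in colony 1, at 3.15, 0.286 and 58.6 CPM in colony 3, and at 5.37, 1.154 and 70.1 CPM in colony 4. At pH 7.9 the values were 6.54, 1.46 and 3.88 CPM in colony 1, 0.773, 0.244 and 0.485 CPM in colony 3, and 2.75, 0.897 and 4.46 CPM in colony 4. The week 4.5 values lay between 0.244 and 1.46 CPM at both pH levels, and the 3 late libraries at pH 7.6 stood far above every other library.

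Transcript_69218 was next in depth, with a mean of 1.36. Its levels at weeks 2, 4.5 and 8.5 were 23.9, 8.26 and 39.4 CPM in colony 1, 5.87, 2.19 and 19.6 CPM in colony 3, and 72.3, 31.4 and 107 CPM in colony 4 at pH 7.6. At pH 7.9 they were 13.6, 1.07 and 13.0 CPM in colony 1, 27.1, 1.81 and 2.86 CPM in colony 3, and 20.3, 13.3 and 25.1 CPM in colony 4. Late levels were above early ones in all 3 colonies at pH 7.6, and in colony 4 alone at pH 7.9.

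The most abundant member, Transcript_55568, averaged 582 CPM and lay near the limit of the list with a mean depth of 0.35. It had 603, 464 and 672 CPM in colony 1, 558, 378 and 819 CPM in colony 3, and 614, 533 and 705 CPM in colony 4 at pH 7.6. The pH 7.9 libraries had 507, 464 and 596 CPM in colony 1, 624, 342 and 513 CPM in colony 3, and 816, 581 and 690 CPM in colony 4. Its week 4.5 levels overlapped the other weeks when colonies were set side by side, since colony 4 at week 4.5 was above colony 1 at week 2 at pH 7.9.

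Transcript_603 averaged 204 CPM with a mean depth of 0.43. At pH 7.6 it had 269, 126 and 185 CPM in colony 1, 149, 140 and 210 CPM in colony 3, and 381, 214 and 271 CPM in colony 4. At pH 7.9 it had 208, 153 and 166 CPM in colony 1, 232, 91.4 and 194 CPM in colony 3, and 299, 163 and 215 CPM in colony 4. The dip was smallest in colony 3 at pH 7.6, where the week 2 level was 149 CPM and the week 4.5 level 140 CPM.

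**Figure D2:**
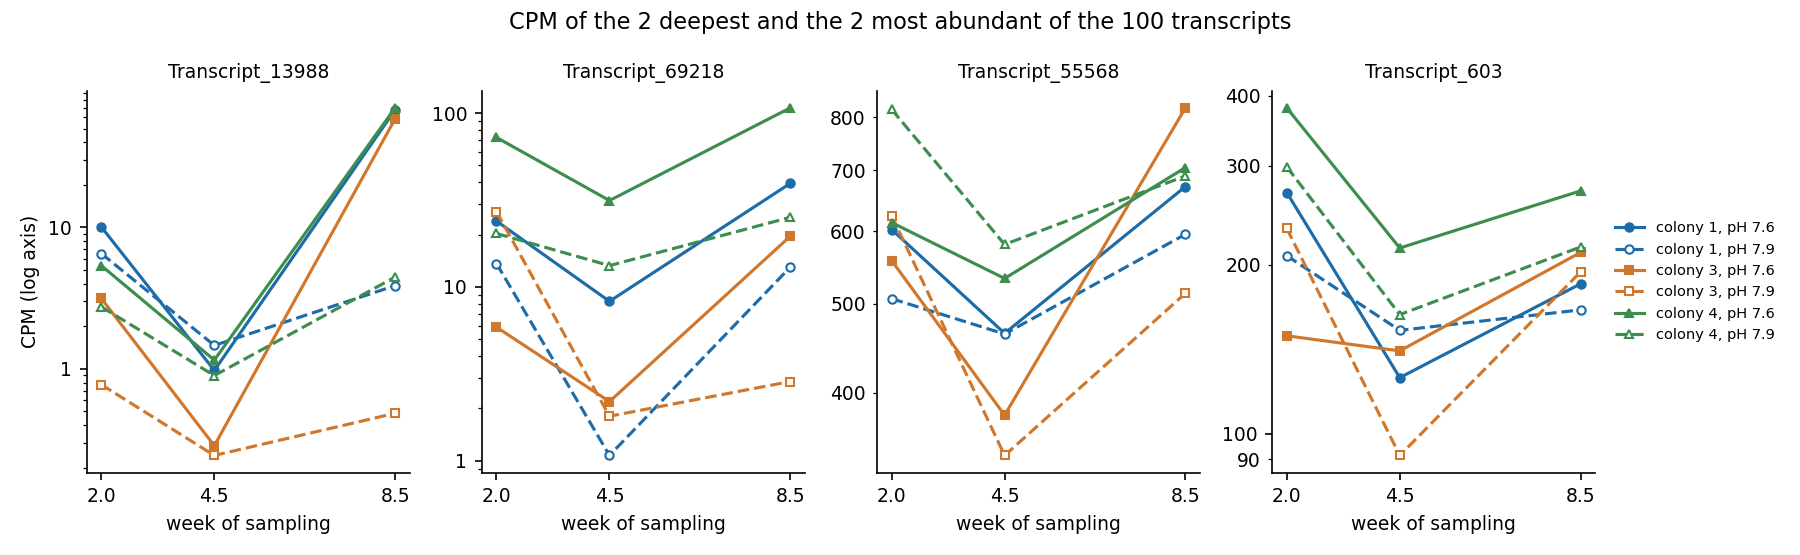
CPM on a log axis against week for the 2 deepest members (left panels) and the 2 most abundant (right panels), 1 point per library. Colours and shapes mark colonies, solid lines and filled points pH 7.6, dashed lines and open points pH 7.9. Transcript_13988 reaches 58.6 to 70.1 CPM at week 8.5 at pH 7.6 and stays at 0.485 to 4.46 CPM at pH 7.9.

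Members covered a wide range of levels, with mean CPM from 1.04 to 582 and a median of 12.2, against a median of 6.08 over the 41428 transcripts. Of the 100, 34 averaged under 5 CPM, compared with 44.6% of those 41428. Another 31 had 5 to 20 CPM, 29 had 20 to 100 CPM and 6 had more. Median depth was 0.47, 0.46, 0.44 and 0.44 in these classes from low to high. The lowest mean depth in each class was 0.35, the limit of the list, so these medians say nothing of depth against abundance.

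Counting error bears on how firm a single dip is. In 354 of the 600 combinations of a member and a series, depth was larger than 2 counting standard errors of the smaller step. This held in all 6 series for 18 members and in no series for 8. None of the 18 was among the members under 5 CPM. The 2 lanes of each library gave a further check: the trough was present in all 6 series in lane 1 counts for 61 members, in lane 2 counts for 65, and in both for 44. The lanes are parts of the values that chose the members, so these counts describe counting noise only. Such intervals cover counting error and not differences between polyps.

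The choice of members set a depth above 0 in every series. Median depth was 0.47, 0.51 and 0.50 at pH 7.6 and 0.44, 0.42 and 0.38 at pH 7.9 in colonies 1, 3 and 4. The order of the pH levels in these medians changed with TMM scaling in colonies 1 and 4, as given below. The deepest single values were 4.22 in colony 4 at pH 7.6 (Transcript_66136), 3.35 in colony 1 at pH 7.9 (Transcript_34979) and 2.84 in colony 1 at pH 7.6 (Transcript_13988). The drop to week 4.5 exceeded the return in 69 of the 100, with medians of 0.75 for the drop and 0.59 for the return. No member had all 6 libraries of week 4.5 below all 12 others. Within a colony, both week 4.5 libraries lay below the other 4 for 55, 65 and 58 members in colonies 1, 3 and 4, against 7.23, 3.14 and 7.25% of the 41428 transcripts. The rule had already placed each week 4.5 library of a member below the others of its own series. Part of this contrast was thus set by the choice of members. Within the sets of alike libraries, whose levels are those the members were chosen on, the 2 week 4.5 libraries lay below every other library of the set for 61 members in the set of colony 1, for 76 in that of colony 3 and for 49 in that of colony 4. These shares were 12.5, 8.44 and 5.29% over the 41428 transcripts, and 21 members met this in all 3 sets.

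Scaling affected the depth. Over all 41428 transcripts the median level was itself 0.23 log2 units higher at week 2 than at week 4.5 in colony 1 and 0.21 higher in colony 4 at pH 7.6, and 0.28 lower in colony 3 at pH 7.6. With library sizes scaled by trimmed mean of M values (TMM), which brings the medians of the step from week 2 to week 4.5 to between -0.04 and 0.01, 62 of the 100 members kept a trough in all 6 series, 27 in 5 and 10 in 4. Mean depth stayed above 0 for all 100 (0.22 to 1.57, median 0.41). Most losses lay in colony 1 at pH 7.6, colony 4 at pH 7.6 and colony 3 at pH 7.9, where 86, 86 and 85 members kept the trough. In colony 3 at pH 7.6 all 100 kept it.

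The rule did not require week 8.5 to lie above or below week 2. A large difference between these weeks lowers the depth that ranks the members. The direction was still not independent of the choice. In colonies 1 and 3 at pH 7.9, week 2 lies in another library set than weeks 4.5 and 8.5. A level higher in the set of week 2 favoured the drop in these series and also places week 8.5 below week 2. The part of this was not tested. Fitted over both pH with colony as a term (edgeR quasi-likelihood test, Benjamini-Hochberg adjustment over 56223 transcripts, log2 fold changes at TMM-scaled library sizes), 28 of the 100 were higher at week 8.5 than at week 2, against 55.2% of all transcripts tested. The median log2 fold change was -0.18 in the 100 and 0.05 over all tested. Over 10 alternative fits the count higher at week 8.5 was 23 to 42. The 42 came with library set in place of colony, against 52.5% of all tested. In that fit the median was -0.09 in the 100 and 0.02 over all tested. All 100 members passed the filter on low counts. The 56223 tested also hold transcripts that the rule could not choose, among them some under its mean of 1 CPM. At an adjusted p below 0.05, 1 member was called (1.03% of all transcripts in either direction), as higher, where 0.173% of all transcripts were, and 0 as lower, where 0.854% were. At an unadjusted p below 0.05 there were 17 members (11.5% of all), and DESeq2 called 1 higher and 3 lower, where it called 0.943% of all transcripts higher and 2.57% lower. The 1 called was Transcript_13988, with 0.485, 31.5 and 70.1 CPM as the lowest, median and highest value at week 8.5, against 0.773, 4.26 and 10.1 CPM at week 2. Its log2 fold change was 1.73 ± 0.35 (SE, edgeR adjusted p = 0.0295), with higher values at week 8.5 in the 3 series at pH 7.6 and in colony 4 at pH 7.9. The call was lost without colony 1, without colony 4, without the colony term and with library set as the block, with adjusted p up to 0.722 over 10 alternatives. Transcript_70778, the farthest in the other direction, had 0.0485, 0.109 and 1.08 CPM at week 8.5 and 0.277, 1.53 and 10.5 CPM at week 2, with a fitted log2 difference of -3.43 ± 0.84 (SE, edgeR adjusted p = 0.0758). It averaged 1.04 CPM and had 0 counts in 3 libraries, all of week 4.5.

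The return differed by pH in the direct values. At pH 7.6, week 8.5 was above week 2 for 59, 65 and 37 of the 100 in colonies 1, 3 and 4, compared with 43.0, 59.9 and 38.0% of the 41428 transcripts. At pH 7.9 this was so for 37, 24 and 23 of the 100, against 47.5, 48.2 and 58.9%. Median differences between weeks 8.5 and 2 were 0.08, 0.19 and -0.17 at pH 7.6 and -0.11, -0.33 and -0.30 at pH 7.9. Over the 41428 transcripts they were -0.08, 0.21 and -0.17 at pH 7.6 and -0.04, -0.04 and 0.10 at pH 7.9. In colonies 3 and 4 at pH 7.6 the members thus differed in their medians as all transcripts did. Only 3 members were higher at week 8.5 in all 6 series and 8 were lower in all 6, against 3.36 and 5.1% of the 41428. The pH 7.9 values of colonies 1 and 3 cross from one library set to another between these weeks. Those of colony 4 do not.

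**Figure D3:**
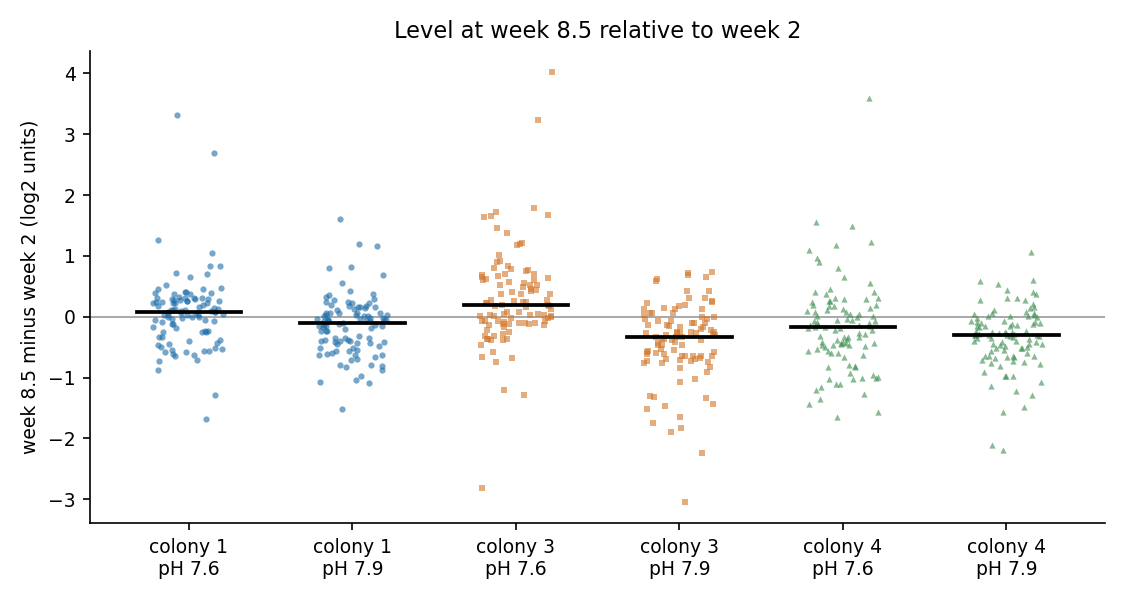
Level at week 8.5 minus level at week 2, in log2(CPM + 0.5) units, of each of the 100 transcripts in the 6 series. Each point is 1 transcript and the bar is the median, at 0.08, 0.19 and -0.17 at pH 7.6 and -0.11, -0.33 and -0.30 at pH 7.9 in colonies 1, 3 and 4. The medians over the 41428 transcripts, not drawn, were -0.08, 0.21 and -0.17 at pH 7.6 and -0.04, -0.04 and 0.10 at pH 7.9.

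A test of whether the change from week 2 to week 8.5 differed between pH 7.6 and pH 7.9, added after these values were seen, called 0 members in edgeR and 0 of all 56223 transcripts (0%). At an unadjusted p below 0.05 there were 5 members (2.77% of all), DESeq2 called 1 (0.0498% of all) and limma-voom 0. Of the 100, 85 had a positive difference, meaning a larger late return at pH 7.6, against 46.1% of all tested. The median difference was 0.27 in the 100 and -0.05 over all tested, and the median SE of a member was 0.51. Over 10 alternative fits the count with a positive difference was 66 to 85. The 66 came with library set in place of colony, against 45.9% of all tested. In that fit the median was 0.13 in the 100 and -0.05 over all tested. The series that cross library sets are both at pH 7.9, so this balance is not independent of how the members were chosen. A drop favoured by a set difference there also makes the late return at pH 7.9 smaller. The part of this was not tested. Transcript_13988 had the largest value, 3.83 ± 0.69 (SE, edgeR adjusted p = 0.522), and Transcript_2636 the most negative, -0.57 ± 0.73 (SE, edgeR adjusted p = 1). Only 2 members were higher at week 8.5 in all 3 series at pH 7.6 and lower in all 3 at pH 7.9, against 0.879% of the 41428 transcripts.

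Averaged over the weeks, more members stood higher at pH 7.6 than at pH 7.9. The rule had removed transcripts with the same sign in all 9 pairs, so that the differences steadiest in sign were left out by construction and the counts here describe what remained. Of the 100, 75 had a positive log2 fold change, against 46.2% of all tested, with a median of 0.24 and of -0.03 over all tested. Over 10 alternative fits the count was 61 to 85, and the 61 came without colony 1, where the median was 0.09. Among the 9 pairs, 23 members were higher at pH 7.6 in 8 and 24 in 7, while 4 members, the fewest, were so in 2. In edgeR 3 members were called (0.141% of all transcripts in either direction), all as higher, where 0.135% of all transcripts were, and 0 as lower, where 0.00534% were. There were 30 members at an unadjusted p below 0.05 (9.28% of all), and DESeq2 called 15 higher and 0 lower, where it called 1.09% of all transcripts higher and 0.608% lower. In place of 3, the count was 16 when library set replaced colony in the model, where 1.39% of all transcripts were called. It was 7 without colony 3 (0.723% of all), and 0 without colony 1 (0.0602%) or colony 4 (0%). Without the 5 libraries outside their set it was also 0 (0.0461%). The calls over all transcripts thus moved with the fit as well.

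Transcript_66136 had 0.119, 1.90 and 32.01 CPM as lowest, median and highest value at pH 7.6, against 0.0488, 0.242 and 2.30 CPM at pH 7.9. Its log2 fold change was 3.49 ± 0.59 (SE, edgeR adjusted p = 0.0355), with higher values at pH 7.6 in 8 of 9 pairs. The high values were those of week 8.5 at pH 7.6, with 23.3, 16.4 and 32.01 CPM in colonies 1, 3 and 4, and 11.0 CPM at week 2 in colony 4. Transcript_13988 had 0.286, 5.37 and 70.1 CPM at pH 7.6 and 0.244, 1.46 and 6.54 CPM at pH 7.9, with a fitted log2 difference of 2.00 ± 0.30 (SE, edgeR adjusted p = 0.0184), also higher in 8 of 9 pairs. Each of these calls held in 5 of 10 alternative fits. The third call, at a mean of 1.91 CPM, had a fitted log2 difference of 1.76 ± 0.27 (SE, edgeR adjusted p = 0.0197). In the other direction Transcript_34979 had 2.76, 39.8 and 198 CPM at pH 7.6 and 3.56, 71.5 and 256 CPM at pH 7.9, with a fitted log2 difference of -1.35 ± 0.78 (SE, edgeR adjusted p = 0.634), and the ranges overlapped almost fully.

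By week, again added after the values were seen, 63, 72 and 85 of the 100 were higher at pH 7.6 at weeks 2, 4.5 and 8.5, against 50.7, 46.0 and 45.2% of all tested. The medians were 0.13, 0.19 and 0.36. Higher at pH 7.6 in all 3 colonies were 15, 25 and 45 members, against 13.8, 11.6 and 14.3% of the 41428 transcripts, and lower in all 3 were 5, 2 and 2, against 11.9, 10.1 and 11.8%. In colony 3 the median difference was -0.23, -0.01 and 0.26 at weeks 2, 4.5 and 8.5, against -0.22, 0.18 and 0.15 over the 41428 transcripts, so that at week 2 the members differed as all transcripts did. There 28, 49 and 62 members were higher at pH 7.6, and the pH 7.9 libraries of colony 3 all lie outside the set of its pH 7.6 ones. Colony 1 had medians of 0.31, 0.35 and 0.57, against 0.07, -0.14 and -0.004 over the 41428, with 88, 79 and 83 members higher. Its pH 7.9 libraries of weeks 4.5 and 8.5 lie outside the set of its pH 7.6 ones. Colony 4, whose 6 libraries share a set, had medians of 0.37, 0.19 and 0.32, against 0.17, -0.05 and -0.03 over the 41428, with 65, 61 and 83 members higher. At week 8.5 edgeR called 1 member (0.117% of all in either direction), as higher (0.112% of all), and 0 as lower (0.00534% of all), with 23 at an unadjusted p below 0.05 (8.7% of all), and DESeq2 called 8 higher, where it called 1.07% of all transcripts higher. The 1 was Transcript_13988, with 67.9, 58.6 and 70.1 CPM at pH 7.6 against 3.88, 0.485 and 4.46 CPM at pH 7.9 in colonies 1, 3 and 4. Its log2 fold change was 4.91 ± 0.55 (SE, edgeR adjusted p = 0.00788), and the groups did not overlap. The call was lost without colony 1, without colony 4, without the colony term and without the 5 libraries outside their set. At weeks 2 and 4.5 no tool of edgeR, limma-voom and DESeq2 called a member (0 in each). Members at an edgeR unadjusted p below 0.05 numbered 6 and 14 (5.46 and 2.15% of all), and edgeR called 0 of all transcripts at either week (0%). Over 10 alternative fits the count higher at pH 7.6 was 57 to 76 at week 2, 49 to 82 at week 4.5 and 65 to 89 at week 8.5. The lowest count of each week came without colony 1, where 53.1, 50.2 and 48.8% of all tested were higher. In that fit the medians were 0.04, -0.01 and 0.26 in the 100 and 0.05, 0.002 and -0.03 over all tested.

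The depth of the trough itself was compared between pH levels, as the mean of weeks 2 and 8.5 minus week 4.5. In edgeR 0 members and 0 of all transcripts were called (0%), 1 member had an unadjusted p below 0.05 (4.36% of all), and DESeq2 and limma-voom called 0 members. The depth was greater at pH 7.6 in 54 of the 100, against 51.0% of all tested, and the median difference was 0.03 with a median SE of 0.45. Differences ran from -1.33 ± 1.37 in Transcript_34979 to 3.20 ± 2.24 in Transcript_70778 (SE, edgeR adjusted p = 0.951 and 0.948). A difference in depth of the size of the median trough was thus within 2 standard errors for a typical member. By the depth that ranked the members, 63 of the 100 were deeper at pH 7.6 on average, 21 in all 3 colonies, and 6 were deeper at pH 7.9 in all 3. These are the values that chose the members, and the order by pH depended on scaling. At TMM-scaled library sizes the median depth in colonies 1, 3 and 4 was 0.32, 0.60 and 0.32 at pH 7.6. At pH 7.9 it was 0.43, 0.31 and 0.35, so that only colony 3 had the larger median at pH 7.6.

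Between colonies, the trough depth was compared with a model of colony and week. Fitted depth had a median of 0.63, 0.82 and 0.70 in colonies 1, 3 and 4, and 16, 53 and 31 members were deepest there. None of the 100 and 0 of all transcripts were called in edgeR (0%), with 0 members and 0.671% of all at an unadjusted p below 0.05, and DESeq2 and limma-voom called 0 members. That share is far under the nominal rate at a p of 0.05, so the model could call little. Its lack of calls does not show that depth was alike in the colonies. Groups of colonies 1 and 3 in this model join libraries of different sets, and the part of this was not tested. The smallest p were those of Transcript_1036, with fitted depths of 0.76, 0.35 and 1.17 in colonies 1, 3 and 4, and Transcript_11458, with 0.34, 1.30 and 0.32 (edgeR adjusted p = 1 for both). In colony 3, Transcript_11458 stood at 20.5, 4.00 and 8.57 CPM at pH 7.6 and at 13.1, 4.54 and 4.56 CPM at pH 7.9 at weeks 2, 4.5 and 8.5, so that its week 2 level was the highest in both series.

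Mean levels of the members were highest in colony 4 for 85 members, in colony 3 for 10 and in colony 1 for 5, against 45.6, 16.2 and 38.2% of the 41428 transcripts. Against colony 1, 91 of the 100 were higher in colony 4 (48.4% of all tested), with a median log2 fold change of 0.38 and of -0.02 over all tested. In edgeR 13 members were called, near the 11.9% of all transcripts called in either direction. All of these members were called higher, where 5.35% of all transcripts were, and 0 lower, where 6.6% were. There were 32 members at an unadjusted p below 0.05 (28.2% of all), and DESeq2 called 25 higher and 0 lower, where it called 9.08% of all transcripts higher and 10.4% lower. Against colony 3, 82 were higher in colony 4 (47.3% of all tested), with a median of 0.33. Called were 6 (4.09% of all transcripts in either direction), all as higher (1.42% of all), and 0 as lower (2.67% of all), with 28 at an unadjusted p below 0.05 (20% of all). DESeq2 called 16 higher and 1 lower, where it called 4.54% of all transcripts higher and 6.22% lower. Both comparisons use the same colony 4 libraries.

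This balance is not independent of how the members were chosen, since in colony 3 at pH 7.9 the week 2 library is of the set of colony 4 and the week 4.5 library of the set of colony 1. A level higher in colony 4 than in colony 1 therefore favoured a drop in that series. A list of 100 was chosen by the same rule from the 4 series that each lie in a single set. Of it, 26 are members. In that list 81 were higher in colony 4 than in colony 1 (48.4% of all tested). Called higher were 9 and lower 2, where 5.35% of all transcripts were called higher and 6.6% lower. The total of 11 was near the 11.9% called over all transcripts. Against colony 3, 82 of that list were higher (47.3% of all tested), with 7 called higher and 1 lower. There 1.42% of all transcripts were called higher and 2.67% lower. Without the 5 libraries, 88 of the members were higher in colony 4 than in colony 1, with 15 called higher and 0 lower, where 9.48% of all transcripts were called higher and 8.36% lower. In that fit 80 were higher than in colony 3, with 24 called higher and 1 lower, where 6.73% of all transcripts were called higher and 7.27% lower. The members in this fit were still those chosen with the 5 libraries, so it cannot remove the dependence on that choice.

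Transcript_19803 had 3.21, 19.4 and 54.7 CPM as lowest, median and highest value in colony 4, against 3.08, 4.05 and 5.32 CPM in colony 1, with a fitted log2 difference of 1.96 ± 0.47 (SE, edgeR adjusted p = 0.0175). The week 4.5 and week 8.5 libraries of colony 4 at pH 7.9, at 3.21 and 5.31 CPM, overlapped colony 1, and the other 4 lay above it. Transcript_1633 had 12.5, 16.3 and 23.5 CPM in colony 4 and 1.61, 4.74 and 6.95 CPM in colony 1, with no overlap and a fitted log2 difference of 1.78 ± 0.43 (SE, edgeR adjusted p = 0.0191). Both calls held in all 6 alternative fits. Transcript_49707 had the most negative difference, with 1.56, 4.29 and 7.85 CPM in colony 4 and 3.27, 6.49 and 10.1 CPM in colony 1, with a fitted log2 difference of -0.53 ± 0.27 (SE, edgeR adjusted p = 0.22).

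Against colony 3 the largest call was Transcript_69218, with 13.3, 28.3 and 107 CPM in colony 4 and 1.81, 4.37 and 27.1 CPM in colony 3. Its log2 fold change was 2.40 ± 0.52 (SE, edgeR adjusted p = 0.0236), and the ranges overlapped through 2 libraries of colony 3, that of week 8.5 at pH 7.6 with 19.6 CPM and that of week 2 at pH 7.9 with 27.1 CPM, of which the second lies in the set of colony 4. Transcript_19803 had 2.10, 3.52 and 7.80 CPM in colony 3 and a log2 fold change of 1.99 ± 0.45 for colony 4 over colony 3 (SE, edgeR adjusted p = 0.0292). Transcript_70778 was lowest, at -1.07 ± 0.99 (SE, edgeR adjusted p = 0.611), and without the 5 libraries outside their set it was called lower in colony 4, at -3.30 (edgeR adjusted p = 0.0450).

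Between colonies 3 and 1, 61 of the 100 were higher in colony 3 (53.2% of all tested), with a median log2 fold change of 0.13. All 3 tools called 0 members, and edgeR called 0 of all transcripts (0%), with 12 members at an unadjusted p below 0.05 (6.17% of all). Without the 5 libraries outside their set, where only 3 libraries of colony 3 and 4 of colony 1 remain, 1 member was called higher and 12 were called lower in colony 3, where 8.73% of all transcripts were called higher and 6.75% lower. The total of 13 was near the 15.5% called over all transcripts, and 43 of the 100 had a positive difference. The balance of these calls is not independent of how the members were chosen. In colony 1 at pH 7.9 the earliest library lies in the set of colony 1. The later libraries of that series lie in the set of colony 3. A level higher in the set of colony 1 than in that of colony 3 therefore favoured a drop there. How far that shaped the balance was not tested. With all libraries kept, the values farthest apart were 2.15 ± 0.96 in Transcript_70778 and -1.74 ± 0.37 in Transcript_13988 (SE, edgeR adjusted p = 0.676 for both). Without the 5 libraries Transcript_70778 was called higher in colony 3, at 3.56 (edgeR adjusted p = 0.0143).

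**Figure D4:**
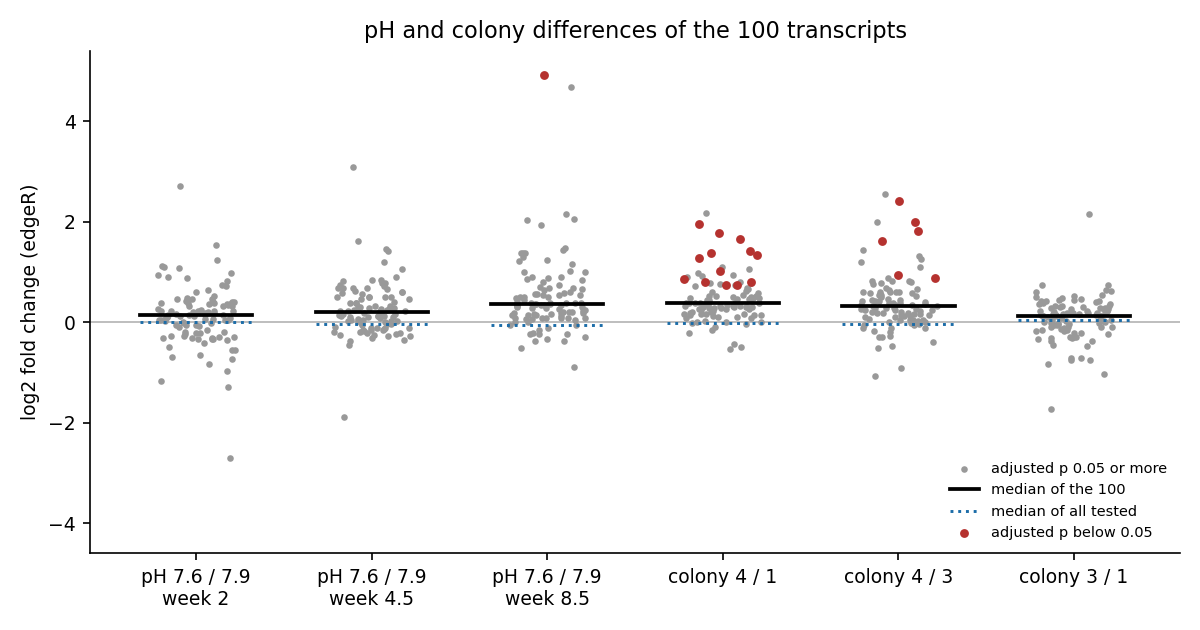
Log2 fold changes from edgeR of the 100 transcripts, 1 point each, for pH 7.6 over pH 7.9 at each week and for pairs of colonies, the colony named first over the other. Red points have an adjusted p below 0.05 over all 56223 transcripts, black bars are medians of the 100 and dotted blue bars medians of all tested. The medians of the 100 are 0.13, 0.19 and 0.36 for pH by week and 0.38, 0.33 and 0.13 for the colonies.

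The members followed their common profile to different degrees. Pearson's correlation of a member with the mean profile of the 100 over the 18 libraries, given as a description, ran from 0.244 to 0.945 with a median of 0.765. The transcripts outside the list most like that profile were Transcript_32463, with a correlation of 0.895 and a mean of 40.7 CPM, and Transcript_32530, with 0.894 and 29.9 CPM. Neither had a trough in all 6 series. Transcript_32463 missed it in colony 3 at pH 7.9, where it stood at 53.0, 25.5 and 22.5 CPM at weeks 2, 4.5 and 8.5.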

How the data were processed

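The authors deposited raw counts of reads per transcript, in 36 columns for 18 libraries sequenced in 2 lanes each. The submitters' processing notes list Trimmomatic 0.36, cutadapt 1.15, FastQC and DESeq2. How reads were aligned and counted, and against which transcripts, is not given in the sources used here, so reads shared by near-identical transcripts or isoforms may have been split or dropped.

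Lanes were summed. Members were found on CPM by library total with a pseudocount of 0.5. The members, lists and comparisons were chosen with earlier results of these data known. Tests used edgeR 4.0.16 under R 4.3.3 (filterByExpr, TMM, quasi-likelihood F test) on all 18 libraries, modelling each pH-by-week group with colony as a term, or each colony-by-week group with pH as a term. The procedure was run on simulated counts with known changes. Those counts had a single dispersion (a measure of spread) for all transcripts and no library sets, so the run does not test the fits against these features. DESeq2 1.42.0 and limma-voom (limma 3.58.1) were alternatives. The standard error is the log2 fold change over the square root of F. Counting standard errors of log2 ratios were computed from the counts of the libraries. Library sets came from average linkage on 1 minus Spearman's correlation. Named transcripts are, for each comparison, at most 2 per direction with an adjusted p below 0.05 and the largest change, or else the most extreme one, plus the 2 deepest and 2 most abundant members and the 2 most like transcripts outside.

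Colony served as the replicate block, since per the labels each colony was kept at both pH levels. Within a colony and week, the deviations of the pH 7.6 library and of the pH 7.9 library from their group means correlated above 0.1 in 5 of 9 pairs (-0.405 to 0.746).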

Additional observations from a re-analysis of the deposited data

Results flagged for a closer look

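Within 42 groups of 6 or 9 libraries of the named transcripts, 7 held a library whose gap to its nearest neighbour on the log2 scale was large for the range of the group. For independent draws from a single normal distribution this happens in about 1 in 20 groups. These groups mix weeks, pH levels or colonies, share libraries, and belong mostly to transcripts named for extreme values. The 7 therefore cannot be set against that rate. Transcript_70778, with few counts, gave 4 of them. It stood at 1.08 CPM in colony 3, pH 7.6 at week 8.5 against 0.0485 to 0.200 CPM in the other week 8.5 libraries. At pH 7.6 it stood at 10.5 CPM in colony 3 at week 2 against 0 to 1.52 CPM in the rest. In colony 4 it had 2.51 CPM at week 2, pH 7.9 against 0 to 0.398 CPM, and in colony 1 it had 1.52 CPM at week 2, pH 7.6 against 0.039 to 0.277 CPM. Transcript_34979 had 3.56 CPM in colony 1 at week 4.5, against 32.9 to 256 CPM in the other pH 7.9 libraries. Transcript_1633 had 1.61 CPM in that same library, against 4.30 to 6.95 CPM in the rest of colony 1. That library is 1 of the 5 outside the set of their colony. Transcript_13988 had 58.6 CPM in colony 3, pH 7.6 at week 8.5, against 0.244 to 3.15 CPM in the rest of colony 3.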

How the results depend on the processing

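Over the alternative settings, 107 counts or values stayed within 1.5 times the value given, or within 1 SD for the median depth, and 38 did not. TMM-scaled CPM left 118 transcripts with a trough in every series and 57 of the members among them, since 5 of the 62 with a trough then had the same pH sign in all 9 pairs, a minimum mean of 5 CPM left 66 members, and the 4 series within 1 library set gave 1444 transcripts, 26 of the members and a median depth of 0.80. Without 1 colony, 646 to 1236 transcripts had the trough and 15 to 50 members were among the 100 chosen. DESeq2 called 4 members for week 8.5 over week 2 (3.51% of all transcripts). For pH it called 15 over all weeks (1.7%), 8 at week 8.5 (1.47%) and 1 for the difference in the late change (0.0498%). Between colonies it called 25 for colony 4 over 1 (19.5%) and 17 for colony 4 over 3 (10.8%). For pH at week 8.5, limma-voom called 2 (0.173%). Without the replicate block there were 0 calls for week 8.5 over week 2 (0.888% of all) and 0 for pH at week 8.5 (0.0854%). No other count then moved by over 1.5 times. The library set in place of colony gave 16 for pH over all weeks (1.39% of all) and 8 at week 8.5 (1.47%). Without the 5 libraries outside their set the count was 0 for pH over all weeks (0.0461% of all). Between colonies it was 25 for colony 4 over 3 (14%) and 13 for colony 3 against 1 (15.5%). Members chosen from the 4 series, a list chosen after the data were seen, gave 7 for pH over all weeks (0.141% of all) and 6 at week 8.5 (0.117%). Of those 4 series, 3 are at pH 7.6. Leaving out a colony gave 0 to 1 for week 8.5 over week 2, where 0.00177 to 0.297% of all transcripts were called. For pH it gave 0 to 7 over all weeks (0 to 0.723% of all) and 0 to 1 at week 8.5 (0 to 0.00707%). Without colony 3 there were 28 for colony 4 over 1, where 24.1% of all were called. Without colony 1 there were 3 for colony 4 over 3, where 2.32% of all were called. The cause of these changes was not tested. Among the named transcripts, Transcript_34979 (pH depth and pH at week 8.5) and Transcript_2636 changed sign in some fits, never with an adjusted p below 0.05, and the rest kept theirs. Of the 100, 34 average under 5 CPM, and for none of these did the depth exceed 2 counting standard errors in all 6 series.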
